A study of Mus musculus with 11 samples.

Results

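The genes described are those of MHC and antigen presentation, a module of 35 symbols that load peptides onto class I and class II molecules or regulate those that do. A symbol took the probe sets that the platform annotation gives to it, unless a gene outside the H2 family shared them, and its value is the median of these probe sets. This rule used no measured value, but the symbols themselves were chosen with earlier results of these data known. The rule found 76 of the 45101 probe sets of the array, and 34 of the 35 symbols had a value, against 18195 genes tested in all. Psme2, an activator subunit of the proteasome, has no value because its probe set also names Psme2b. A single probe set stood for 14 genes and several, up to 10, for the other 20. H2-DMb1 rests on 2 probe sets that H2-DMb2 shares, and H2-T23 likewise on probe sets that name several H2 genes, so these cannot be told from their neighbours in the family.

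The samples were splenic B cells of female mice aged 6 weeks, purified by magnetic removal of the other cells. NOD/ShiLtJ (NOD) mice develop autoimmune diabetes, and NOD.NOR-Chr4/DvsJ (NR4) mice carry a segment of NOR chromosome 4 on the NOD background. Cells stayed for 2 h in medium alone, or with 10 µg/ml of goat F(ab')2 fragments against mouse IgM, which cross-link the B cell receptor. Affymetrix Mouse Genome 430 2.0 arrays measured 3 unstimulated and 2 anti-IgM treated samples of NOD, and 3 unstimulated and 3 anti-IgM treated samples of NR4. Each strain was drawn from 3 lots, and 1 lot pooled 7 to 8 spleens, so a sample is a pool and not 1 animal. The 2 cultures of a strain come from these same lots.

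Values are signals taken to be on the log2 scale, each probe set centred on its median over the 11 arrays. A value of 0 is thus the median array, and neither the level of a gene nor whether it was detected can be read from it. For the same reason the identity of the cells could not be checked by the level of B cell markers. In bulk RNA, fewer cells of a type and less RNA per cell cannot be told apart. Differences were tested with limma over all genes, and a gene is called changed where its Benjamini-Hochberg adjusted p is under 0.05.

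Class II molecules display peptides from the endocytic pathway to CD4+ T cells. In B cells these include peptides of antigen that the B cell receptor has captured. The class II chains assemble with the invariant chain, which lysosomal proteases degrade to a fragment that H2-DM exchanges for antigenic peptide, with H2-O as an inhibitor of H2-DM. Class I molecules display peptides that the proteasome cuts in the cytosol and that the TAP transporter carries into the endoplasmic reticulum. The coactivator CIITA drives class II genes through the RFX and NF-Y factors on their promoters, and NLRC5 does so for class I genes. NOD mice are known for an unusual class II molecule, encoded by H2-Aa and H2-Ab1 on chromosome 17, outside the NOR segment of NR4.

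The promoters of class II genes are shown because the regulators described below act on them. The 250 bases before the start of a gene were taken from RefSeq (GRCm38.p6, the C57BL/6J reference, whose MHC haplotype is not that of NOD). Capitals mark matches, on either strand, to the letters CNNATGATG, named X-like here, to ATTGG, the core of the Y box, and to TGACGTCA, the cyclic AMP response element. H2-Aa, an alpha chain, lies on the minus strand at chr17:34287824-34288073, and H2-Eb1, a beta chain, on the plus strand at chr17:34305617-34305866. The genes of the peptide editors lie on the plus strand, H2-DMb1 at chr17:34152941-34153190, H2-DMb2 at chr17:34144999-34145248 and H2-Ob at chr17:34238655-34238904. The sequences read 5′ to 3′ in the direction of the gene.
H2-Aa: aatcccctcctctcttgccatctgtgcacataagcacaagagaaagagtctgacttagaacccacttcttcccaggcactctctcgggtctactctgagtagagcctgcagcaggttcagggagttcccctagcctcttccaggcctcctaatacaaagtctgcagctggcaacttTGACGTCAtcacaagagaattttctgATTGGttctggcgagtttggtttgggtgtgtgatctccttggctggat
H2-Eb1: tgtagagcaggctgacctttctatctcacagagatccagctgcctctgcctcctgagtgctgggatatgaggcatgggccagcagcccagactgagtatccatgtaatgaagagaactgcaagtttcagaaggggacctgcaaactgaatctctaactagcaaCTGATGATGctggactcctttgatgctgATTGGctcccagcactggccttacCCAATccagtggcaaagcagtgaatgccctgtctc
H2-DMb1: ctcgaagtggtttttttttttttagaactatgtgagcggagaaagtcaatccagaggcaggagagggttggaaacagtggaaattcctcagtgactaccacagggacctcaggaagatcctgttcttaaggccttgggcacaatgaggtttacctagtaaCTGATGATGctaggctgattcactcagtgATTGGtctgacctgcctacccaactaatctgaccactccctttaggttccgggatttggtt
H2-DMb2: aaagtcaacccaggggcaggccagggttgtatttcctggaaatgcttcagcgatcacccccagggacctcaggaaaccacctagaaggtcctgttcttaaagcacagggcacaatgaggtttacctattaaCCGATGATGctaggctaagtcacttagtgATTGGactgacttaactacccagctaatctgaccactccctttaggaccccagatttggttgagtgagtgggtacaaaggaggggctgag
H2-Ob: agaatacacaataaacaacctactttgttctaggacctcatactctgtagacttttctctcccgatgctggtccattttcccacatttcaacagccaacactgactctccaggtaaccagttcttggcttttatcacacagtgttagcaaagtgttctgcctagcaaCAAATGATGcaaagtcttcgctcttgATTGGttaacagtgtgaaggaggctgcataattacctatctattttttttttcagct

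The X-like letters were chosen after these promoters had been read. They occurred in 2.75% of 32851 RefSeq windows of 300 bases (250 before and 50 after a start). Among the 27 module genes with a window, 6 held them, namely H2-DMb1, H2-DMb2, H2-Eb1, H2-Ob, H2-T23 and Psme2. ATTGG was found in 37.4% of all windows and in those of 17 module genes. The percentages count windows, whereas a module gene counts once if any of its windows matched. Both motifs together were in 1.12% of windows and in 5 module genes, the same as for X-like without Psme2. Between the X-like match and the next ATTGG lay 19 bases in H2-Eb1, 20 in H2-DMb1 and in H2-DMb2, and 17 in H2-Ob. H2-Aa held TGACGTCA, present in 1.79% of windows, and its ATTGG followed after 18 bases. GAAANNGAA, part of an interferon response motif, was in 8.56% of windows and in those of B2m, Ctss, Erap1, H2-T23 and Psme1. These matches are descriptions of letters and not of bound sites.

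The first comparison asks which of these genes respond to anti-IgM. Averaged over both strains, Ifi30 fell and no other gene of the module passed the test. Signs were counted by role, with no test between roles, and 8908 of the 18195 genes tested had negative differences. All 5 peptide editors of class II, all 4 regulators of class II and all 4 immunoproteasome genes with a value had negative differences, while the regulator of class I, Nlrc5, had a positive one. Of the editors, H2-DMb1 and H2-DMb2 share probe sets, so they are not separate measurements here or in the counts below. The class II chains themselves lay near 0. In all, 1 of 34 genes was called, against 1.56% of all genes tested, so that count says little about the module. Before adjustment, 12 of 34 genes (35.3%) had a limma p under 0.05, against 11.4% of all genes. The module was chosen with earlier results of these data known, and dim genes could not be filtered out of all genes. The 2 shares are thus a description and no test of the module. Of the 12, 9 were negative, and over all genes 1321 of 2073. The differences had a median of -0.049 over the module and of 0.0034 over all genes, and 15 of the 34 were positive. Leaving out 1 array at a time moved the difference by over 1.5 times for 20 of the 34 genes and turned its sign for 4, B2m, Ciita, Erap1 and H2-Ab1.

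**Figure D1:**
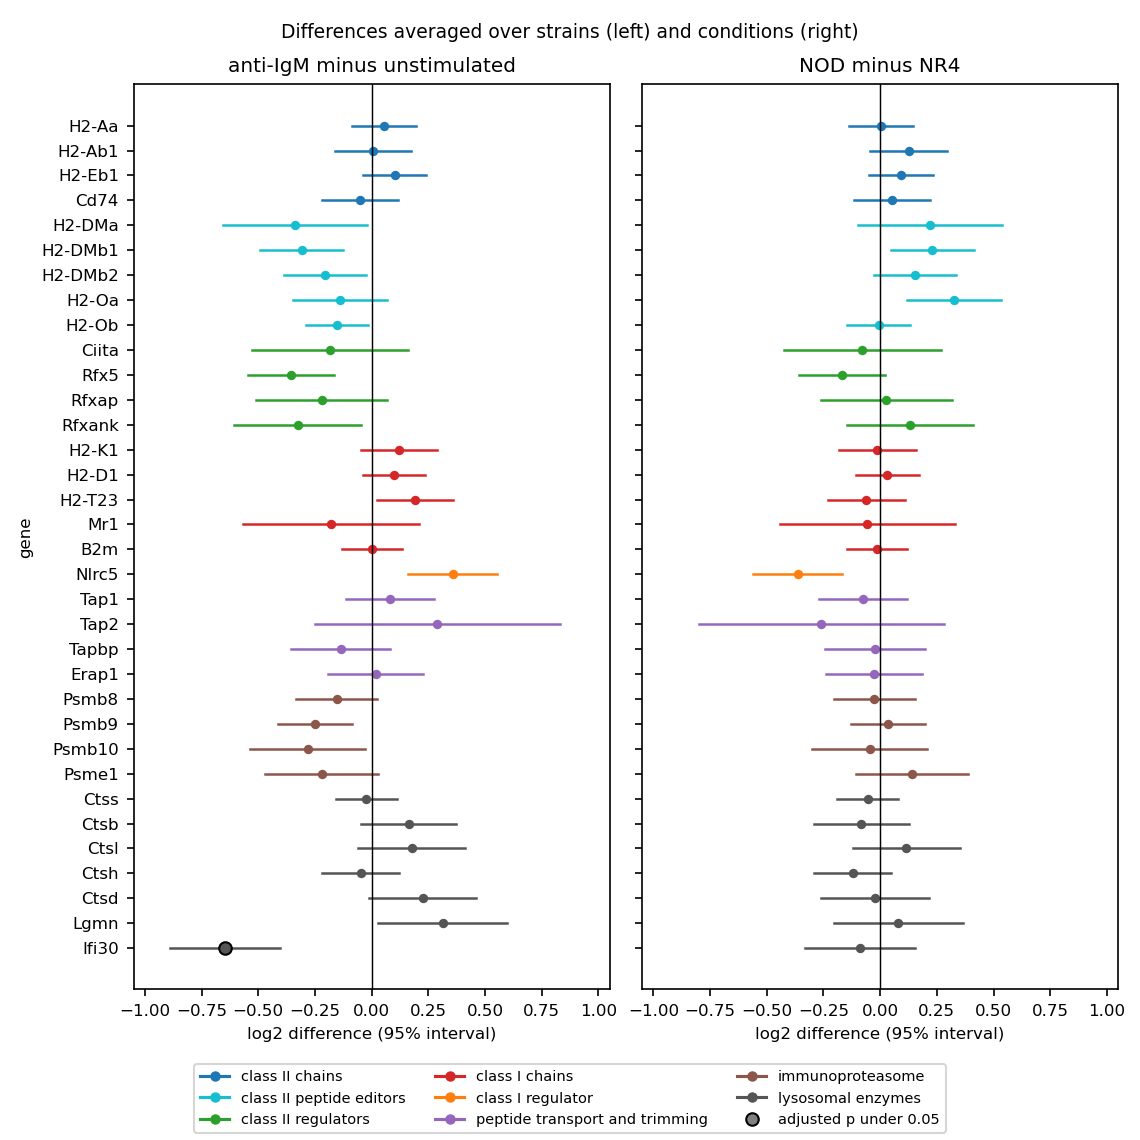
Log2 differences of the 34 genes (points) with 95% intervals (lines), averaged over strains for anti-IgM minus unstimulated on the left and averaged over conditions for NOD minus NR4 on the right, coloured by role. Ifi30, at -0.65 on the left, is the single point past an adjusted p of 0.05, and the peptide editors, class II regulators and immunoproteasome genes all lie left of 0 there.

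Ifi30 encodes a lysosomal thiol reductase that opens disulfide bonds of antigens before they are loaded on class II. Its centred log2 value was 0.15, 0 and 0.20 on the unstimulated NOD arrays and -0.33 and -0.59 on the anti-IgM NOD arrays. In NR4 it was 0.21, 0.058 and 0.56 without and -0.60, -0.47 and -0.26 with anti-IgM. The treated arrays were all below the untreated ones, in both strains. It fell by 0.65 on the log2 scale (SE 0.11, 95% interval -0.89 to -0.40, limma adjusted p = 0.019). In NR4 alone the difference was -0.71 (limma adjusted p = 0.078, or 0.019 with the replicate number as a block), and in NOD alone -0.58 (limma adjusted p = 0.42).

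The call of Ifi30 rests on 1 probe set, and it was lost without some single arrays. Its difference stayed between -0.71 and -0.58 when each array was left out in turn. A second probe set, left out because it also names Pik3r2, differed by 0.062, and with both kept Ifi30 was at -0.29 (limma adjusted p = 0.27). Without any 1 of the unstimulated NOD arrays the adjusted p (limma) was 0.0509, 0.0508 or 0.0565, at differences of -0.64, -0.68 and -0.62. Without NOD anti-IgM replicate 2 the difference was -0.58.

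The lysosomal enzymes differed in sign. Of the 7 genes, Ifi30 included, 4 had positive and 3 negative differences, with a median of 0.16. Lgmn, an asparaginyl endopeptidase that starts the cleavage of some antigens, was at 0.31 (SE 0.13, limma adjusted p = 0.36). Its values were 0.14, -0.39 and -0.25 in unstimulated NOD, 0.54 and 0.18 after anti-IgM, 0.072, -0.17 and 0 in unstimulated NR4, and -0.11, -0.024 and 0.34 after anti-IgM. The groups were apart in NOD and overlapped in NR4. The cathepsins Ctsd (0.22), Ctsl (0.18) and Ctsb (0.16), which degrade proteins in endosomes, were positive, and none passed. Ctss, the cathepsin that trims the invariant chain in B cells, was at -0.024 with a 95% interval of -0.16 to 0.11. Ctsh, an aminopeptidase, was at -0.048.

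Chains of class II had differences near 0. H2-Ab1, the beta chain of the NOD class II molecule, had values of 0.11, -0.035 and 0.13 in unstimulated NOD, 0.17 and -0.0062 in treated NOD, -0.062, -0.17 and 0.080 in unstimulated NR4 and -0.061, -0.12 and 0.037 in treated NR4. The groups overlapped in both strains. Its difference was 0.0067 (95% interval -0.16 to 0.18), that of the alpha chain H2-Aa 0.055 (-0.087 to 0.20), that of H2-Eb1 0.10 (-0.038 to 0.24) and that of the invariant chain gene Cd74 -0.050 (-0.22 to 0.12). None passed, and changes within these intervals were not excluded with 11 arrays.

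The editors were all below 0 and none was called. H2-DMa, the alpha chain of H2-DM, was at 0.24, 0.14 and 0.20 in unstimulated NOD and at -0.018 and -0.34 after anti-IgM. In NR4 its values were 0.026, -0.23 and 0.014 without and 0.046, -0.81 and -0.31 with anti-IgM. The NOD groups were apart, but in NR4 the first treated array was above all untreated ones. The averaged difference was -0.34 (SE 0.14, limma adjusted p = 0.39).

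H2-DMb1, a beta chain of H2-DM, was at 0.18, 0.10 and 0.19 in unstimulated NOD and at 0.0098 and -0.17 after anti-IgM. Unstimulated NR4 arrays had 0.040, -0.20 and 0.15, and treated ones -0.32, -0.49 and -0.32. Treated and untreated arrays did not overlap in either strain. The difference was -0.31 (SE 0.082, limma adjusted p = 0.12) and -0.29 with the replicate number as a block (limma adjusted p = 0.046). The adjusted p was 0.028 (limma) with a random block of lot. For that block the replicate number within a strain was assumed to mark the lot, which the labels do not say. With the replicate number as a block, H2-DMb1 and Ifi30 passed for the averaged response, 2 of 34 genes against 3.07% of all genes. The neighbouring beta chain, H2-DMb2, differed by -0.21 (SE 0.082, limma adjusted p = 0.34). All 5 of its probe sets were negative, from -0.63 to -0.092.

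Both chains of H2-O were negative too. H2-Ob was at 0.0073, 0.072 and 0.067 in unstimulated NOD, -0.18 and -0.024 after anti-IgM, 0.12, 0 and 0.055 in unstimulated NR4 and -0.066, -0.10 and -0.13 after anti-IgM. Every treated array was below every untreated array, by a small step, and the difference was -0.15 (SE 0.062, limma adjusted p = 0.35). H2-Oa was at -0.14 (SE 0.093). The X-like promoters printed with the sequences belong to 3 editors with negative differences and to H2-Eb1, whose difference was positive. Of the 3 editors, H2-DMb1 and H2-DMb2 share probe sets. H2-T23, whose promoter also held both motifs but is not printed, was positive too, at 0.19.

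**Figure D2:**
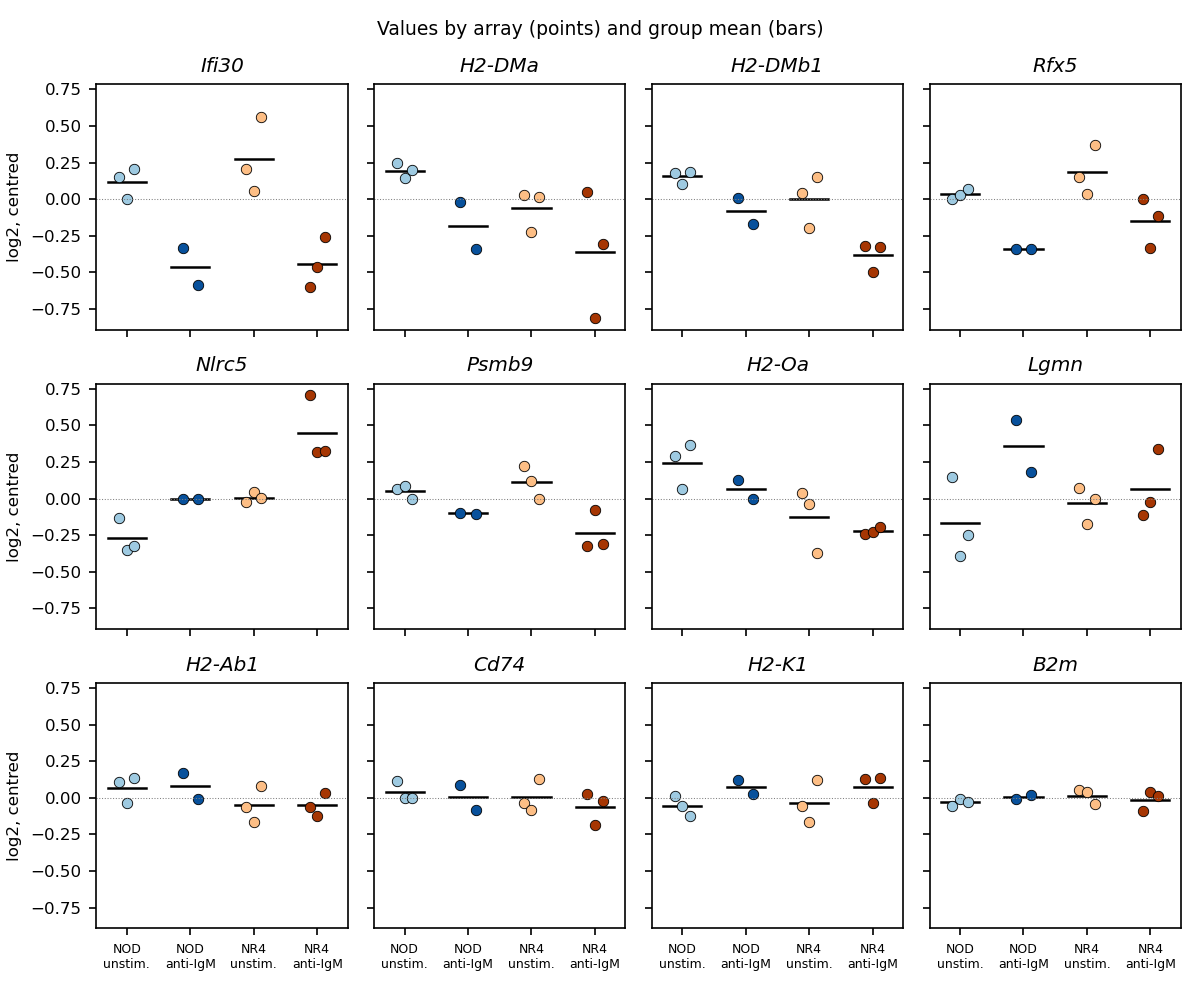
Centred log2 values of 12 genes on the 11 arrays (points, 3, 2, 3 and 3 arrays in the 4 groups) with the group means (bars). Ifi30, H2-DMb1, Rfx5 and Psmb9 are lower and Nlrc5 higher on the anti-IgM arrays of both strains, while H2-Ab1, Cd74, H2-K1 and B2m stay between -0.19 and 0.17 on every array.

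Regulators of class II had negative differences as well. Rfx5, the DNA-binding subunit of the RFX complex, was at 0, 0.032 and 0.072 in unstimulated NOD and at -0.34 on both treated arrays. In NR4 it was at 0.15, 0.037 and 0.37 without and at 0, -0.33 and -0.11 with anti-IgM. Within each strain the treated arrays were below the untreated ones. Its difference was -0.35 (SE 0.085, 95% interval -0.54 to -0.16, limma adjusted p = 0.081, or 0.021 with the assumed lot as a random block). The other RFX subunits were at -0.33 for Rfxank (SE 0.13, limma adjusted p = 0.32) and -0.22 for Rfxap (SE 0.13), or -0.025 from its lowest-numbered probe set alone. Ciita, the class II coactivator, was at -0.18 with a wide interval, from -0.53 to 0.16, and its 3 probe sets differed in sign, from -0.36 to 0.12. Without NOD anti-IgM replicate 2, 3 of these 4 regulators were negative.

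On the class I side, Nlrc5 had the largest positive difference of the module. Its values were -0.14, -0.35 and -0.33 in unstimulated NOD, -0.0015 and 0 in treated NOD, -0.026, 0.041 and 0.00062 in unstimulated NR4 and 0.71, 0.32 and 0.33 in treated NR4. The treated arrays were above the untreated ones in each strain, and treated NOD arrays lay where untreated NR4 arrays did. The averaged difference was 0.36 (SE 0.088, 95% interval 0.16 to 0.55, limma adjusted p = 0.086), from 1 probe set. The adjusted p (limma) was 0.032 with the assumed lot as a random block and 0.028 with array weights. The weights were 7.28 for NOD unstimulated replicate 2, 5.14 for NR4 unstimulated replicate 2 and 0.40 to 0.91 for the other arrays. The weighted fit thus rested largely on 1 unstimulated array of each strain.

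Of the 5 class I chains, 4 had positive differences and 1, Mr1, a negative one. H2-K1, a classical heavy chain, was at 0.12 (95% interval -0.047 to 0.29), with all 6 probe sets positive, and H2-D1 at 0.098 (-0.040 to 0.24), with all 10 positive. A probe set that names both genes is counted for each. Within a strain, 1 of the 10 of H2-D1 was negative, at -0.15 in NOD and at -0.21 in NR4. The H2-D1 probe set left out by the rule was at 0.00085. H2-T23 encodes Qa-1, which presents leader peptides to NK and T cell receptors, and was at 0.19 (SE 0.076, limma adjusted p = 0.34). B2m, the common light chain, was at 0.0020 (95% interval -0.13 to 0.13), and Mr1, which presents microbial metabolites, at -0.18 (SE 0.17). Of these 5 genes none passed.

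Immunoproteasome genes with a value were all negative. The probe set of Psme2, left out by the rule, was at 0.011, with 0.056 in NOD and -0.034 in NR4. Psmb9, a catalytic subunit, was at 0.063, 0.087 and 0.00025 in unstimulated NOD and at -0.10 on both treated arrays. In NR4 it was at 0.22, 0.12 and 0 without and at -0.32, -0.082 and -0.31 with anti-IgM. No treated array reached an untreated one. The difference was -0.25 (SE 0.073, limma adjusted p = 0.15, or 0.049 with the array weights given for Nlrc5). The other catalytic subunits, Psmb10 and Psmb8, were at -0.28 (SE 0.11) and -0.15 (SE 0.080), and the activator subunit Psme1 at -0.22 (SE 0.11). Psmb10 was at -0.15 without NOD anti-IgM replicate 2, and Psme1 at -0.14 without NR4 anti-IgM replicate 1.

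Tap1, a subunit of the peptide transporter, is transcribed away from Psmb9, and their promoter windows share 275 of 300 bases. Its 250 bases on the plus strand of chr17:34187306-34187555, with ATTGG on either strand in capitals, are shown because the genes on both sides were measured.
Tap1: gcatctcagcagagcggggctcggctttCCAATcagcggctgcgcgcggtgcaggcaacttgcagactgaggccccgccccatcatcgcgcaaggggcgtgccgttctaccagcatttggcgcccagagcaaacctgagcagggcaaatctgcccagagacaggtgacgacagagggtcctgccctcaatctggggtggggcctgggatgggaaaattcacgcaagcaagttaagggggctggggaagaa
Tap1 was at 0.079 (95% interval -0.11 to 0.27), against -0.25 for Psmb9. This difference between the genes was not tested. Tap2, the other transporter subunit, was at 0.29 with the widest interval of the module, from -0.25 to 0.83. Tapbp, which bridges TAP and class I, was at -0.14 (SE 0.098) and Erap1, which trims peptides in the endoplasmic reticulum, at 0.018 (SE 0.095).

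**Figure D3:**
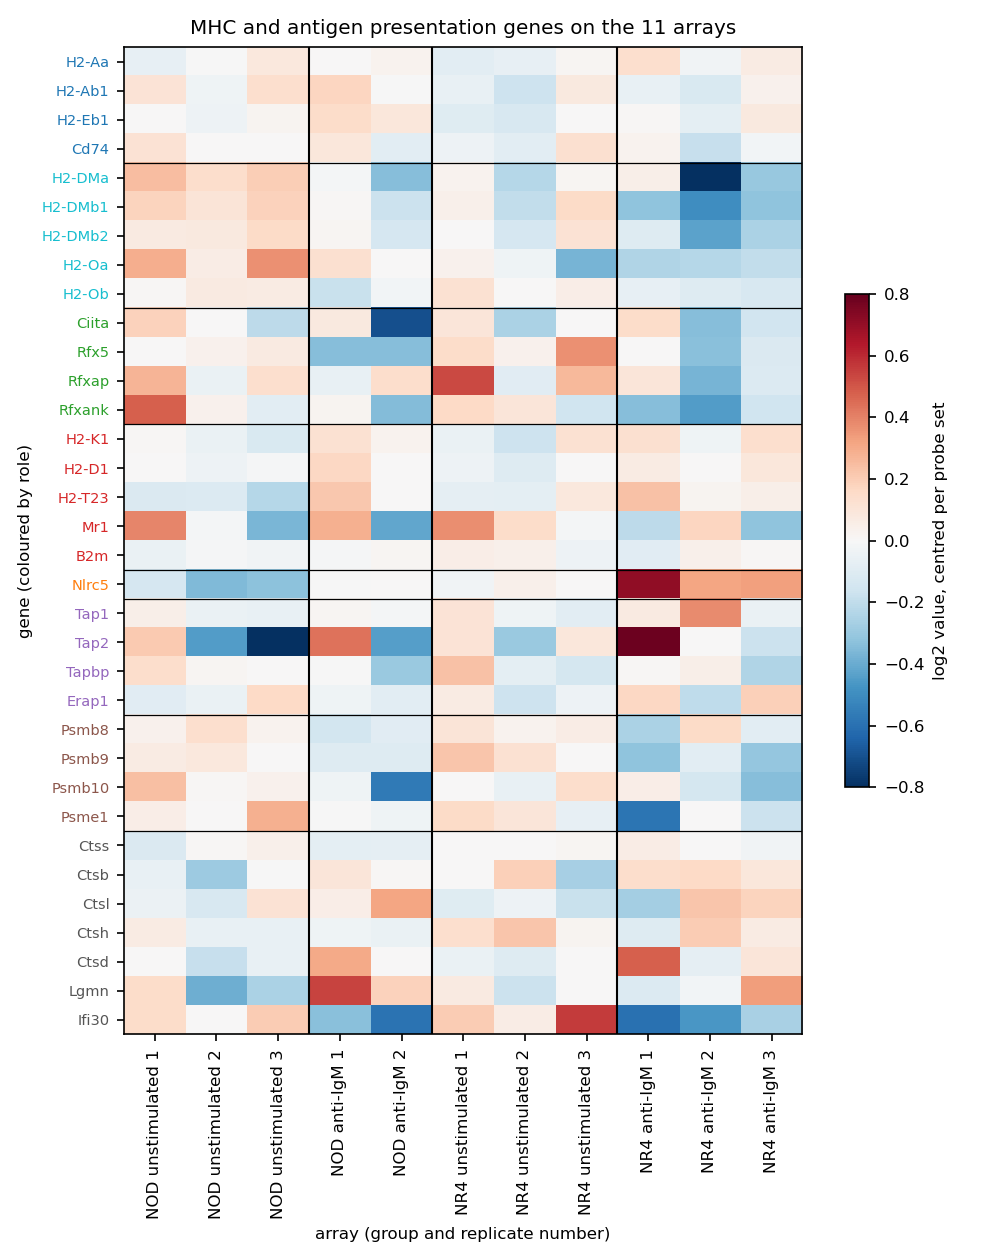
Centred log2 values of the 34 genes (rows, grouped by role) on the 11 arrays (columns, grouped by strain and culture), with red above and blue below the median array and colours ending at 0.8 on either side. Ifi30 turns from red or white to blue with anti-IgM. The editors shift towards blue on average, though several are already white or blue on unstimulated NR4 arrays. Nlrc5 turns to white in NOD and to red in NR4, and single arrays stand out in Tap2 and Ciita.

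Within a single strain no gene of the module was called. In NOD the count was 0 of 34 (limma, 0.115% of all genes), with 5 at an unadjusted p under 0.05 (5.16% of all genes). NR4 gave 0 of 34 (limma, 0.412% of all genes), with 6 at an unadjusted p under 0.05 (9.64% of all genes). With the replicate number as a block 1 of 34 was called in NR4, Ifi30, against 1.26% of all genes. Treated and untreated arrays did not overlap for 17 genes in NOD, where 20.3% of all genes did so. Of these, 6 were higher and 11 lower after anti-IgM, and 59.1% were lower among all genes that did not overlap. In NR4 this held for 6 genes, 1 higher and 5 lower (12.6% of all genes, of which 59.4% lower). The same 6 were apart in both strains and in the same direction, namely H2-DMb1, H2-Ob, Rfx5, Psmb9 and Ifi30 as lower and Nlrc5 as higher (5.64% of all genes). Across all arrays, treated and untreated were apart for H2-Ob, Psmb9 and Ifi30 (3.64% of all genes).

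The response had the same sign in both strains for 31 of 34 genes (91.2%), against 59.99% of all genes. The strains share no array, but the module was chosen with earlier results of these data known, and this share was not tested. The interaction, the response in NOD minus that in NR4, was called for 0 of 34 genes and for 0% of all genes (limma), with 0 of the module and 1.4% of all genes at an unadjusted p under 0.05. Its largest value was that of Lgmn, 0.43 (SE 0.26), with 0.53 in NOD and 0.10 in NR4. Leaving out 1 array at a time moved that of Lgmn between 0.25 and 0.60. It moved the interaction by over 1.5 times for 33 of the 34 genes, all but Psmb9 (0.20), and turned its sign for 21. For 18 of the 34 genes the 95% interval of the interaction stayed within 0.5 log2 units of 0, and for the rest a larger difference between strains was not excluded at this number of arrays.

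**Figure D4:**
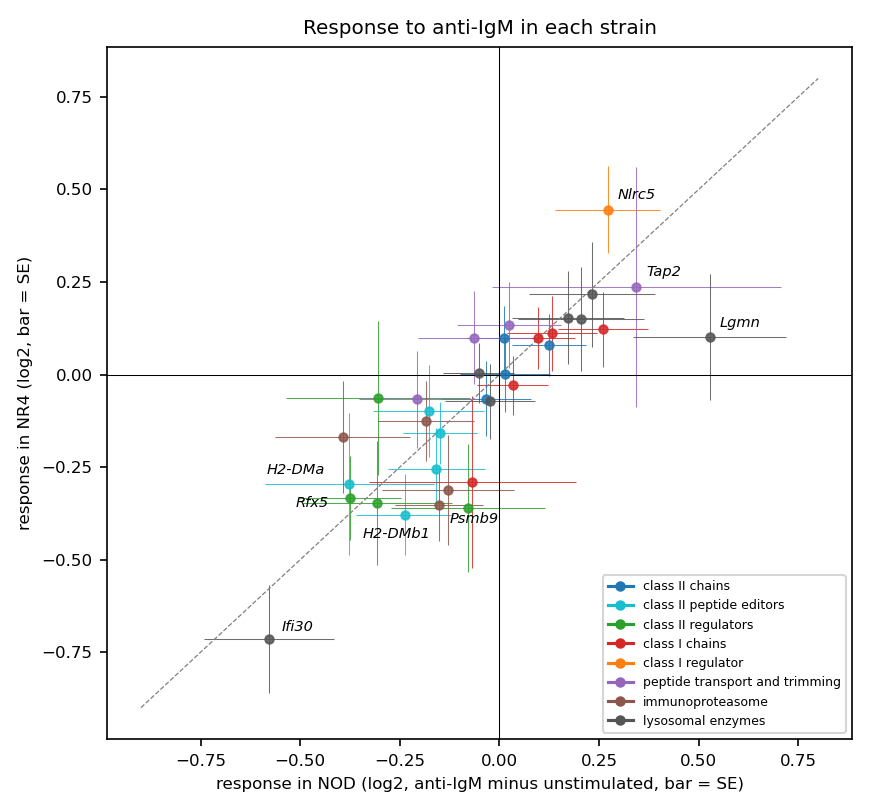
Response to anti-IgM in NOD (horizontal) and NR4 (vertical) of the 34 genes, in log2 units with SE bars, coloured by role, with the line of equal response dashed. In all, 31 of the 34 points lie on the same side of 0 in both strains, with Ifi30 at -0.58 and -0.71 farthest from 0 and Lgmn, at 0.53 and 0.10, well to the right of the line.

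The second comparison asks whether the NOR segment of chromosome 4 alters these genes, none of which lies on that chromosome (16 of the measured genes are on chromosome 17). No gene of the module was called. In unstimulated cells the count was 0 of 34 (limma, 0.0605% of all genes), with 2 at an unadjusted p under 0.05 (1.54% of all genes). After anti-IgM it was 0 of 34 (limma, 0.0495%), again with 2 (4.35%). Averaged over both conditions it was 0 of 34 (limma, 0.121%), with 3 against 4.4% of all genes. The median of the averaged strain difference was -0.013, and for 30 of 34 genes its 95% interval stayed within 0.5 log2 units of 0. Leaving out 1 array at a time turned the sign of the averaged strain difference for 13 of 34 genes.

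Nlrc5 had the smallest p of the module averaged over conditions and after anti-IgM, and H2-Oa in unstimulated cells. From the values above, NOD minus NR4 was -0.28 in unstimulated and -0.45 in treated cells, and -0.36 averaged (SE 0.088, limma adjusted p = 0.41), and the strains did not overlap in either condition. H2-Oa was higher in NOD by 0.32 (SE 0.093, limma adjusted p = 0.67). Its values were 0.29, 0.062 and 0.36 in unstimulated NOD, 0.13 and 0 in treated NOD, 0.037, -0.036 and -0.37 in unstimulated NR4 and -0.24, -0.23 and -0.20 in treated NR4, so the strains were apart in both conditions. H2-DMb1 (0.23), H2-DMa (0.22) and H2-DMb2 (0.15) had the same sign, H2-Ob was at -0.0066, and none passed. Rfx5 was at -0.17 and H2-Ab1 at 0.13. Strain arrays were apart in unstimulated cells for 4 genes, Nlrc5, H2-Oa, H2-DMa and H2-T23 (6.39% of all genes), and in treated cells for 6 (14.1%). Over both conditions together they were apart for 0 of 34 (0.599%).

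Probe sets of a gene gave the same sign more often for the averaged response than for the other comparisons, a difference that was not tested. Of the 20 genes with several, all probe sets had 1 sign of averaged response in 16, and signs were mixed in 4, H2-Ab1, Ciita, Mr1 and Tap1. For the response within either strain 13 of 20 had 1 sign, for the averaged strain difference 10 and for the interaction 9. Sizes varied more, as in Ctsb, from 0.11 to 0.59 over 5 probe sets, and H2-DMb1, from -0.44 to -0.18 over 2. The array was designed on reference sequence, and whether H2 alleles of NOD bind every probe was not tested.

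**Figure D5:**
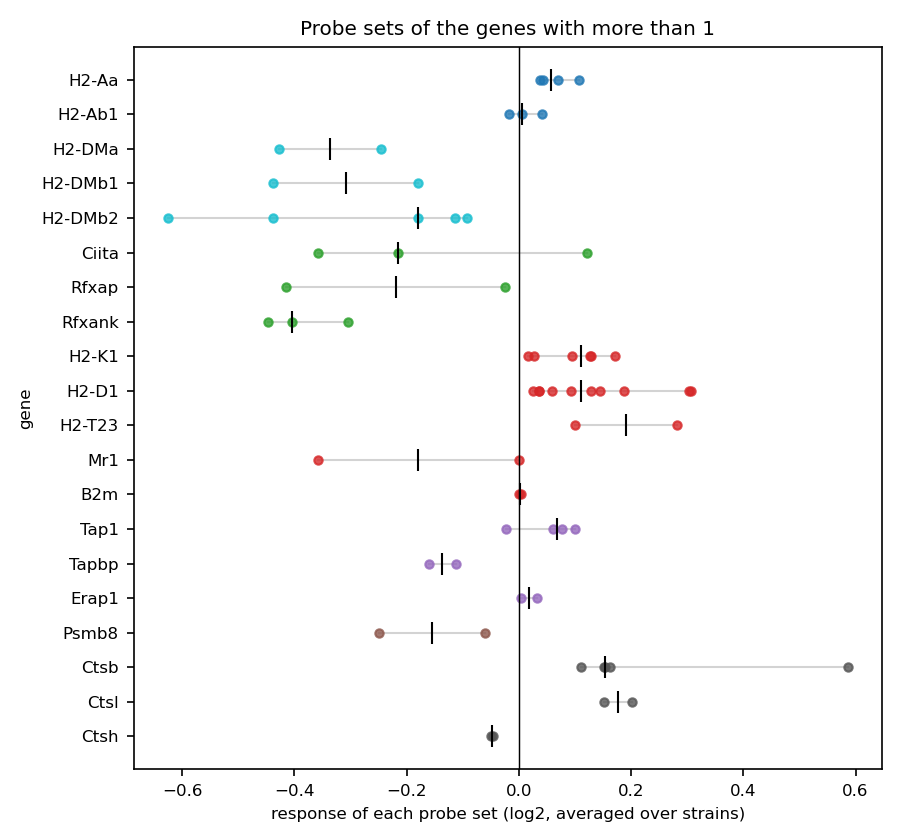
Averaged response of each probe set (points, log2 units) of the 20 genes with more than 1, with their range (grey line) and median (black tick). All probe sets of the H2-DM genes lie below 0 and all 10 of H2-D1 above it, while those of Ciita fall on both sides.

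Other genes of the pathway were taken from a list. On the class I side 21 were measured, and 1 fell, 0 rose and 20 did not pass (limma), where 1.56% of all genes were called. At an unadjusted p under 0.05 there were 5 of 21, against 11.4% of all genes. This was Cd1d1, which presents lipids, at -0.39 (limma adjusted p = 0.040). On the class II side 20 were measured, and 2 fell, 0 rose and 18 did not pass, with 10 of 20 at an unadjusted p under 0.05. Marchf1, a ubiquitin ligase that removes class II from the surface, fell by 0.64 on the log2 scale (SE 0.13, limma adjusted p = 0.036). Nfyb, a subunit of the NF-Y factor that binds the Y box, fell by 0.38 (SE 0.070, limma adjusted p = 0.026). The medians of the 2 lists were 0.0025 and -0.059. No gene of either list passed for strain (limma), with 3 of 21 and 1 of 20 at an unadjusted p under 0.05 averaged over conditions, against 4.4% of all genes.

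Some facts of the whole series move with these results. The mean 3' minus 5' difference of control probe sets, a sign of RNA quality, was mostly higher on treated arrays. It was 0.21 and 0.13 on the anti-IgM arrays of NOD and 0.96, 0.042 and 0.23 on those of NR4. Of the 6 unstimulated arrays, 5 lay between -0.079 and -0.0069, and NR4 replicate 3 was at 0.29. NR4 anti-IgM replicate 1 is the highest array. Without it the editors stayed at 0 of 5 positive (median -0.25), the class II regulators at 0 of 4 (-0.30), the immunoproteasome at 0 of 4 (-0.18) and Nlrc5 at 0.29. B cell markers fell with anti-IgM for 3 of 7 (Cd22 -0.99, Cd79b -0.62, Ms4a1 -0.51, limma), and the median over the 7 lay between -0.61 and 0 on treated and between -0.12 and 0.29 on untreated arrays. Of 7 dendritic cell markers 1, Itgax, also known in B cell subsets, rose by 0.50. Of 5 plasma cell markers 1 was called as higher after anti-IgM (limma, 3 at an unadjusted p under 0.05). Their differences ranged from -0.15 to 0.79. For strain, averaged over conditions, 0 of 8 T cell markers were called and 5 had an unadjusted p under 0.05 (limma), of mixed sign, from -0.72 for Cd4 to 1.02 for Cd3g. Of 6 NK and cytotoxic markers 0 were called and 1, Gzma (0.96), had an unadjusted p under 0.05. None of 10 monocyte, 8 T cell and 6 NK markers was called for the response (limma, 2, 0 and 0 at an unadjusted p under 0.05). Interferon-stimulated genes, which share regulation with class I genes, had 0 of 14 called (limma, 5 at an unadjusted p under 0.05) and a median response of 0.26, with array medians up to 0.74 in NR4 anti-IgM replicate 1. For strain their median was -0.24, and 0 of 14 were called (limma, 4 at an unadjusted p under 0.05). Over all genes, 1.56% were called for the averaged response and 11.4% had an unadjusted p under 0.05 (limma). For the averaged strain difference these shares were 0.121% and 4.4%. The part of any of these facts in the differences above was not tested.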

How the data were processed

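Splenic B cells of NOD and NR4 mice were measured on 11 arrays, grouped by the sample titles. The authors deposited log2 values. RMA is named in the submitters' processing notes, and its version is not given in the sources used here. The log base is not stated and was taken as 2. All 45101 probe sets have a median of exactly 0, so values were also centred, and array medians lay between -0.0011 and 0.022. In the platform annotation 34945 probe sets name 1 gene, 932 several and 9160 none, and 64 are controls.

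Probe sets were summarised to genes by their median. Group means were fitted to all 11 arrays with limma 3.58.1 in R 4.3.3 (7 residual degrees of freedom), with empirical Bayes moderation, and 7 comparisons were each adjusted by Benjamini-Hochberg over 18195 genes, two-sided, at 0.05. Centring removed the signal level, so dim genes could not be filtered out. Precision is limited by how many arrays there are. The fit was tested on simulated data with independent noise on each array, which does not cover arrays that deviate together. The 34 genes were named by role whatever their values. The members and lists were chosen with earlier results of these data known.

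Arrays with the same number deviated together between strains when unstimulated (correlations 0.59, 0.21 and 0.51) and between cultures of NR4 (0.33, 0.22 and 0.47), above the limit of 0.1. Pairing is not established for anti-IgM treated NOD cells, with only 2 arrays (0.63 and 0.12 against unstimulated NOD, 0.37 and -0.12 against treated NR4). The labels do not say that a number marks a lot. Alternatives were a replicate block, a random block of strain and replicate number (the assumed lot) and array weights. Further alternatives were other scalings, other choices of probe sets, a filter on spread, fits of the compared groups and each array left out.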

Additional observations from a re-analysis of the deposited data

How the results depend on the processing

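With 11 arrays and no levels, small differences were not detectable, and which genes lie near background is not known. With the replicate number as a block, 1 gene was called in NR4 (Ifi30) and 2 for the averaged response (Ifi30 and H2-DMb1). No other count of called genes changed with the block. A random block of the assumed lot gave 1 and 4 (Ifi30, H2-DMb1, Nlrc5 and Rfx5). Array weights gave 3 for the averaged response (Ifi30, Nlrc5 and Psmb9) and 1 for strain in unstimulated cells (Nlrc5). These weights rested the fit largely on replicate 2 of each unstimulated group. Keeping probe sets shared with genes outside the H2 family, a choice made after seeing the data, left 0 called for the averaged response. Without the 25% of genes with the smallest spread, 22 of the module remained, and the median over the module was -0.14 in NOD, -0.13 in NR4 and -0.18 averaged, since genes near 0 were taken out. Leaving out each array in turn left 0 to 1 gene called for the averaged response. The median over the module then ranged from -0.081 to -0.0085 for the response in NOD, from -0.064 to -0.0082 in NR4 and from -0.073 to -0.0055 averaged. For strain it ranged from -0.042 to 0.11 after anti-IgM and from -0.032 to 0.043 averaged, and for the interaction from -0.046 to 0.078. Beyond the effects of construction, the cause of these changes was not tested. All other alternatives gave the same counts, and for the averaged response the peptide editors were negative under each alternative that gave them a value.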
